A study of Mus musculus with 2 samples.

Results

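The immunoglobulin variable (V) genes were read in the plasma cells of 2 single-cell RNA libraries of mouse optic nerve. V genes were chosen by symbol, starting with Ighv (heavy chain), Igkv (kappa light chain) or Iglv (lambda light chain), with at least 20 unique molecular identifiers (UMIs, each a counted RNA molecule) over both libraries. This gave 203 of the 348 V gene rows in the files, made up of 113 of 185 Ighv, 87 of 160 Igkv and 3 of 3 Iglv genes. Plasma cells were barcodes with at least 10 UMIs of Jchain, the chain that joins IgA and IgM into polymers, and at least 2 of Mzb1, an endoplasmic reticulum protein of antibody-secreting cells. There were 525 of 10845 barcodes in the library C-ON and 2130 of 21341 in the library FMC_new, 2655 of 32186 in all. Since the UMIs that chose the genes are the ones that give their usage, usage is a description and carries no test.

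Both libraries carry the genotype label NF1-OPG, the Nf1 flox/mut; GFAP-Cre mouse that develops optic glioma, in which Cre is driven by a promoter of astrocytes and their precursors. The mice were 12 weeks old, on a C57BL/6 background, and 10 were pooled for a cell suspension. The title of C-ON names it a control and that of FMC_new gives no treatment, so there is 1 condition and no contrast, and differences between the libraries cannot be told apart from differences between pools of mice. Cells of 1 library are not replicates, and every interval below is an exact Clopper-Pearson 95% interval that covers counting error only.

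A B cell builds its antibody by joining 1 heavy V gene to a D and a J segment and 1 light V gene to a J segment, and normally keeps a single heavy and a single light rearrangement. Class switching later exchanges the heavy constant gene (Ighm for IgM, Ighg1, Ighg2b, Ighg2c and Ighg3 for IgG, Igha for IgA) while the V gene stays. Descendants of 1 B cell therefore share their V genes, but cells can also share V genes without common descent. The kit reads the 5′ end of transcripts, where the V gene lies, and the receptor enrichment was for T cells, so no antibody junction was sequenced and cells with 1 pair of V genes are not called a clone here.

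The 3′ ends of the coding parts of 6 V genes are shown first, since they belong to the pairs that recur below. The pair Ighv8-12 with Igkv8-21 was the most frequent over both libraries, Ighv1-26 with Igkv3-2 was the most frequent in FMC_new, and Ighv1-81 with Igkv8-30 had at least 20 cells in each library. Each run holds the last 90 coding bases, 5′ to 3′, from GENCODE M21 on GRCm38, and the capitals mark the last in-frame cysteine codon, where the third complementarity-determining region begins. All 6 genes have 2 exons, and these bases lie in the second exon. Ighv8-12 (chr12:115647945-115648034), Ighv1-26 (chr12:114788372-114788461), Ighv1-81 (chr12:115920279-115920368), Igkv8-21 (chr6:70314895-70314984) and Igkv8-30 (chr6:70117061-70117150) are read from the minus strand and Igkv3-2 (chr6:70698978-70699067) from the plus strand. The heavy genes end 6 to 10 bases after that codon and the kappa genes 20 to 23 bases after it, so the germline heavy gene gives few of the bases of this region.
Ighv8-12: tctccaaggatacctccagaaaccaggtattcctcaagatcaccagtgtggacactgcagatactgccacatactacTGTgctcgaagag
Igkv8-21: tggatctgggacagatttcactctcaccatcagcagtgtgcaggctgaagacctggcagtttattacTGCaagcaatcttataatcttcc
Ighv1-26: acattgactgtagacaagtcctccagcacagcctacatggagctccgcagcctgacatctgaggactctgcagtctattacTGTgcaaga
Igkv3-2: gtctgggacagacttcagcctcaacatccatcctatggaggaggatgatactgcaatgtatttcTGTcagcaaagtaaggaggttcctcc
Ighv1-81: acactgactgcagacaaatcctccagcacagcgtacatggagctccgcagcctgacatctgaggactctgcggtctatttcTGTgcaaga
Igkv8-30: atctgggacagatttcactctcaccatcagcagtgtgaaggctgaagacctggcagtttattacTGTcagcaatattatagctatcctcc

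The cells chosen by Jchain and Mzb1 carried the plasma cell markers. Xbp1, the transcription factor of the secretory programme, had a UMI in 92.4% of the C-ON cells (95% interval 89.8 to 94.5) and 86.6% of the FMC_new cells (85.1 to 88.0), against 33.2% and 37.0% of the other barcodes. Sdc1, the surface proteoglycan CD138, had one in 64.4% and 53.4%, against 0.843% and 1.48%. In cells with 10 to 49 Jchain UMIs, Sdc1 was seen in 15.7% in C-ON and 8.82% in FMC_new, against 69.6% and 67.0% of those with at least 50. Xbp1 was seen in 58.8% and 53.9% of the former and in 96.0% and 96.6% of the latter. The former also had fewer UMIs per cell, with medians of 2834 and 2930 against 12977.5 and 15532. Fcer2a, a receptor of mature B cells, was at 0 in FMC_new and in 1 cell of C-ON. The cells were not free of RNA of other types: the pituitary hormone gene Gh had a UMI in 99.8% of the FMC_new plasma cells and in none of C-ON, and Mbp of oligodendrocytes in 96.2% and 93.5%. The other barcodes of the same library had close shares, 99.8% for Gh in FMC_new, and 96.9% and 98.0% for Mbp.

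V gene RNA was also found outside plasma cells. In oligodendrocytes (at least 2 Mog UMIs, fewer than 10 Jchain and no Mzb1), which do not rearrange antibody genes, 93.4% of 6448 barcodes in C-ON had a V UMI, with a median of 4, and 100% of 1989 in FMC_new, with a median of 28. Plasma cells had a median of 5166 member UMIs in C-ON and 5752.5 in FMC_new, 46.6% and 51.1% of a cell's UMIs. The median depth was 12232 and 12203 UMIs in plasma cells and 8177.5 and 8064 in oligodendrocytes. In FMC_new the single gene Igkv3-2 had a UMI in 89.2% of oligodendrocytes, with a median of 3, and in C-ON in 0.0465%. Since 3 UMIs of a gene make a call (below), calls in FMC_new cells of low V counts rest on a level that oligodendrocytes also reach.

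The rule's limit for plasma cells also lay closer to the background in FMC_new. Jchain had a UMI in 96.9% of the other barcodes there, with a median of 4 UMIs, against 43.8% and a median of 0 in C-ON. There were 499 FMC_new plasma cells and 51 C-ON plasma cells with 10 to 49 Jchain UMIs, and these had a median of 291 and 385 light V UMIs, against 5391 and 4040 in the cells with at least 50. The 55 FMC_new plasma cells with exactly 10 Jchain UMIs had a median of 76 member UMIs, and the 67 barcodes just outside, with 9, had a median of 62. At the limit for genes, Ighv8-7 with 20 UMIs, Ighv1-15 with 23 and Ighv3-5 with 23 were inside, and Igkv8-34 with 19, Igkv2-116 with 18 and Igkv4-51 with 18 were outside. The libraries shared 296 cell barcodes, of which 4 were plasma cells in both. No doublet caller was run, and 77 plasma cells of C-ON and 502 of FMC_new had over 20000 UMIs.

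A call was the gene with the most UMIs in a cell, at least 3 and without a tie. A heavy gene was called in 443 C-ON cells (84.4%, 81.0 to 87.4) and 2038 FMC_new cells (95.7%, 94.7 to 96.5), and a light gene in all 525 and in 2116 (99.3%, 98.9 to 99.6). Of the 203 members, 133 were the top gene of at least 1 plasma cell and 70 of none. The highest of the latter was Igkv11-125 with 44615 UMIs. Among heavy genes, 28 were on top in C-ON and 67 in FMC_new, with 27 in both. Among kappa genes the numbers were 26, 60 and 22. Iglv1 was the only lambda gene on top.

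The light chain of most cells came down to 1 gene. The top light gene held a median of 99.0% of a C-ON cell's light V UMIs and 97.9% of an FMC_new cell's, with medians of 3308 and 3468.5 UMIs. In T cells of FMC_new (at least 2 Cd3e UMIs, fewer than 10 Jchain, no Mzb1), where the top light gene also reached 3 UMIs in 1824 of 2373 barcodes, its median share was 23.4%. In such T cells of C-ON a light gene was called in 195 of 846 barcodes, and the median share was higher, 50%. The top heavy gene held a median of 98.7% in FMC_new and 61.9% in C-ON, with medians of 1289.5 and 587 UMIs. At least 80% of heavy V UMIs were in the top gene in 70.2% of FMC_new cells with a call and in 35.9% of C-ON cells. In the plot of these shares, the heavy chain of C-ON has a second group of cells between 50 and 70%.

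**Figure D1:**
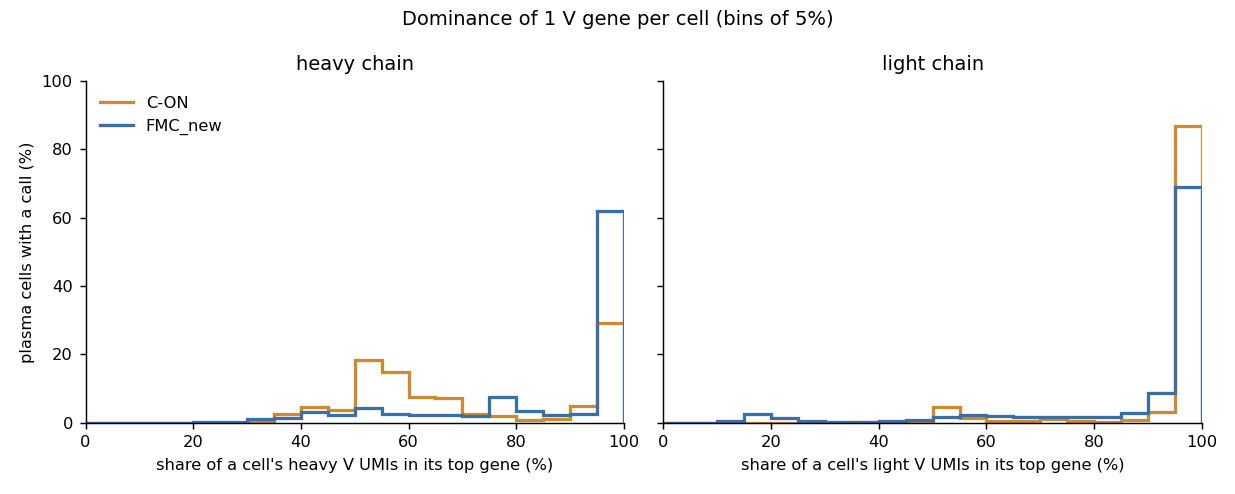
Share of a plasma cell's heavy (left) or light (right) V UMIs held by its top gene, in bins of 5% (x axis), against the percentage of plasma cells with a call (y axis), for C-ON (orange) and FMC_new (blue). The light chain peaks in the highest bin in both libraries, and the heavy chain does so in FMC_new, while C-ON cells are spread, with a median of 61.9%.

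The second gene of such cells was nearly always a relative of the first. A second heavy gene held at least 10% of the heavy V UMIs in 273 of the 424 C-ON cells whose top gene had 10 UMIs or more (64.4%) and was of the same V family in all 273. In FMC_new this was 618 of 1981 cells (31.2%), and 537 of them (86.9%) had the same family. Ighv1-77 came second in 106 of 109 C-ON cells with Ighv1-81, with a median of 29.9% of the UMIs, and the pair of genes is 91.5% identical over 351 aligned bases. In FMC_new, Ighv1-77 came second to Ighv1-81 in 45 of 207 cells, and there the median share of Ighv1-81 was 99.6%, against 57.9% in C-ON. Ighv6-6 came second in 178 of 183 FMC_new cells with Ighv6-3, with a median of 20.7%, at 90.9% identity. Ighv5-6 came second in 31 of 31 C-ON cells with Ighv5-4 and Ighv5-4 in 25 of 25 with Ighv5-6, with medians of 46.4% and 47.3%, at 95.7% identity. Whether such a cell holds RNA of both genes, or of 1 rearranged gene whose reads were split between like references, cannot be told apart in gene counts.

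The sequences of these sets show how far the references differ. The runs below hold the 240 coding bases up to and including the last in-frame cysteine codon, from GENCODE M21 on GRCm38, all on the minus strand of chromosome 12, with the bases that differ within each set in capitals. These genes were chosen after their values were seen, other than Ighv1-81 and Ighv6-3. Ighv5-4 (chr12:113597454-113597693) and Ighv5-6 (chr12:113625514-113625753) differ at 11 of the 240 bases. Ighv1-81 (chr12:115920285-115920524) and Ighv1-77 (chr12:115861873-115862112) differ at 20, and Ighv6-3 (chr12:114391717-114391956) and Ighv6-6 (chr12:114434794-114435033) at 21.
Ighv5-4: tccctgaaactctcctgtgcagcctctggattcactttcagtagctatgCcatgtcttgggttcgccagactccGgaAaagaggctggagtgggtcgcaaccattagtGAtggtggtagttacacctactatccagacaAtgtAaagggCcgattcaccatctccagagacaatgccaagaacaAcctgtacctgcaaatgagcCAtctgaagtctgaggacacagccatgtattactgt
Ighv5-6: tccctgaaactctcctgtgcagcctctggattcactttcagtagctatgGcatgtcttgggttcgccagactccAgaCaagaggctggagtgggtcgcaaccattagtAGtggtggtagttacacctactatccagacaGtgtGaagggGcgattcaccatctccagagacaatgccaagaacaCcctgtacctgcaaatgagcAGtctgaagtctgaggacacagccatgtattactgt
Ighv1-81: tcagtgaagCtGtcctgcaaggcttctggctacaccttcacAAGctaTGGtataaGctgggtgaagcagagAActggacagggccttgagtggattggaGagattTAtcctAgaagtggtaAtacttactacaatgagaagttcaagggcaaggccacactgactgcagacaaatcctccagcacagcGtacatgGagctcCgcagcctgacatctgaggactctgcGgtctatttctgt
Ighv1-77: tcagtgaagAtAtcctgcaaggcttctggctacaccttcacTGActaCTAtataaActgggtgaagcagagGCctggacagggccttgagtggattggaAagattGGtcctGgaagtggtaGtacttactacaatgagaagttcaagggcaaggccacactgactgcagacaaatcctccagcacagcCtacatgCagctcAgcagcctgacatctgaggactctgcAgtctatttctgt
Ighv6-3: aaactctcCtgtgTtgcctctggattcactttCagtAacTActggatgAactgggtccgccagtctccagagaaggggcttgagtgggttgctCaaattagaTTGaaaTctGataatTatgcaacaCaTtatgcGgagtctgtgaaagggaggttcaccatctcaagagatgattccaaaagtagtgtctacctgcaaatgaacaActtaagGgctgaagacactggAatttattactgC
Ighv6-6: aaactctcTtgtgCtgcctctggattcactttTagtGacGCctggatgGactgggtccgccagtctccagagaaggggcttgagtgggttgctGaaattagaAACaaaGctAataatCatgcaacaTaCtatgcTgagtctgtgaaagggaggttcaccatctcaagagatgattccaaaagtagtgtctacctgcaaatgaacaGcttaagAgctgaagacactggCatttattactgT

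Over both libraries, Ighv1-81 was the most used heavy gene, with 112 C-ON cells (25.3%, 21.3 to 29.6) and 210 FMC_new cells (10.3%, 9.02 to 11.7). Under a stricter call, at least 10 UMIs and 80% of the heavy V UMIs, it was the top gene of 0% of C-ON cells with a call and 9.59% of FMC_new cells. Ighv1-77 was second in nearly all Ighv1-81 cells of C-ON, as given above. Ighv8-12 had close shares in both, with 40 cells (9.03%, 6.53 to 12.1) and 188 cells (9.22%, 8.0 to 10.6). Its top gene share was high in each, with medians of 99.9% and 99.7%. Ighv1-26, by contrast, was called in 0 of 443 C-ON cells (interval up to 0.829%) and in 209 FMC_new cells (10.3%, 8.97 to 11.7). The intervals, which cover counting error within a library only, thus overlapped for Ighv8-12 and not for Ighv1-81 or Ighv1-26. For Ighv1-81 the order of the libraries was reversed under the stricter call.

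The next heavy genes were mostly those of FMC_new. Ighv6-3 was on top in 4 C-ON and 185 FMC_new cells, Ighv1-64 in 6 and 180, Ighv1-19 in 7 and 119, Ighv2-6 in 2 and 108, and Ighv8-8 in 1 and 67. Ighv1-9 went the other way as a share, with 17 cells (3.84%, 2.25 to 6.07) in C-ON and 42 (2.06%, 1.49 to 2.78) in FMC_new, though these intervals overlap. Ighv3-2, with 91 FMC_new cells and 0 C-ON cells, is annotated as a pseudogene in the reference, as are 23 of the 113 heavy members. Of these 23, 8 were on top in 42 C-ON and 130 FMC_new cells in all. Ighv1-19 had few UMIs for a top gene, a median of 100 in FMC_new, and held a median of 43.0% of the heavy V UMIs there, with Ighv1-21-1 second in 74 of 119 cells.

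Light chain usage differed between the libraries in the same way. Igkv10-96 was on top in 129 C-ON cells (24.6%, 20.9 to 28.5) and in 67 FMC_new cells (3.17%, 2.46 to 4.0). Igkv8-19 was on top in 95 C-ON cells (18.1%, 14.9 to 21.7) and 9 FMC_new cells (0.425%, 0.195 to 0.806). Igkv3-2, called in more cells than any other light gene over both libraries, had 258 FMC_new cells (12.2%, 10.8 to 13.7) and 0 C-ON cells. Its share over both libraries was 9.77%, and 6.99% when a call needed at least 10 UMIs and 80% of the light V UMIs. Under that stricter call Igkv1-110 led in FMC_new, with 195 cells. Igkv3-2 was also the gene with a UMI in 89.2% of FMC_new oligodendrocytes. Igkv5-43, Igkv4-57 and Igkv4-58 were also called in FMC_new only, in 198, 98 and 90 cells, each with an interval of up to 0.700% in C-ON. Igkv8-21, the partner of Ighv8-12, was again the gene with close shares, 7.43% (5.34 to 10.0) and 9.59% (8.37 to 10.9). Igkv1-110 (4 and 230 cells), Igkv6-17 (6 and 205) and Igkv1-117 (16 and 170) complete the 10 most used light genes.

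**Figure D2:**
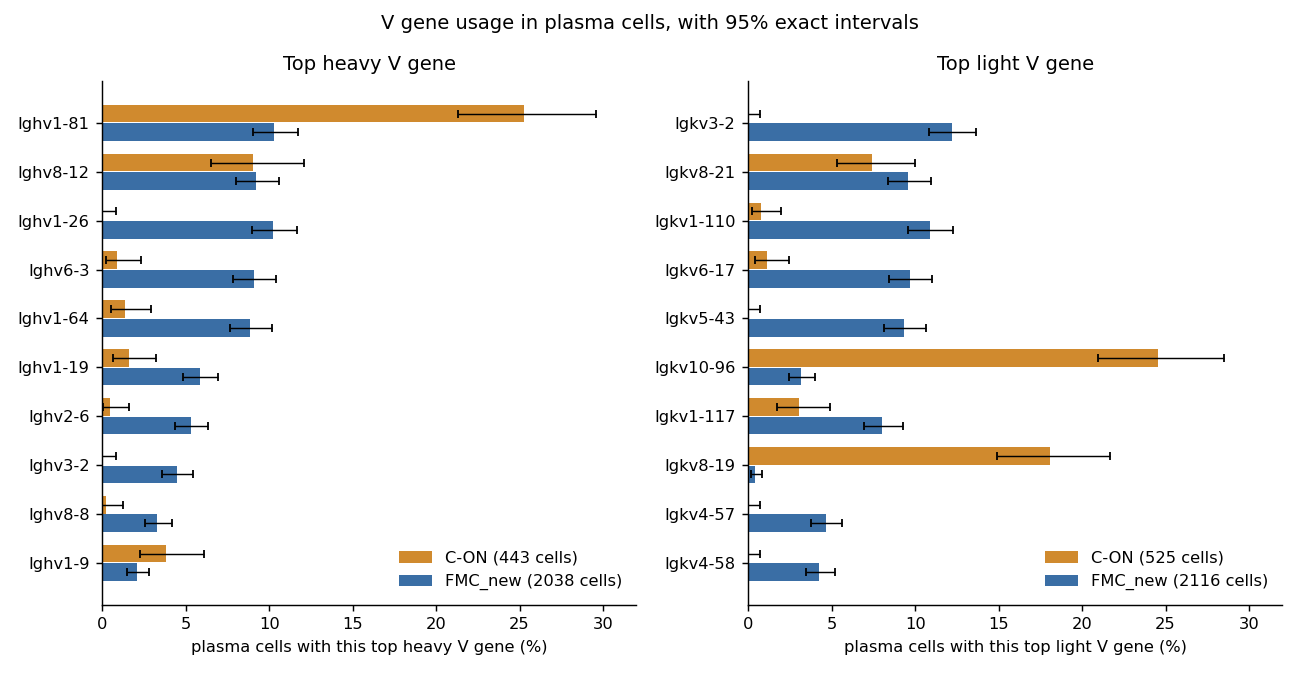
Percentage of plasma cells with a call (x axis) whose top heavy (left) or light (right) V gene is the named gene, for the 10 genes most used over both libraries, with bars for C-ON (orange) and FMC_new (blue) and 95% exact intervals for counting error. Ighv8-12 and Igkv8-21 have overlapping intervals, while Ighv1-81, Igkv10-96 and Igkv8-19 are longer in C-ON and Ighv1-26 and Igkv3-2 have no C-ON cell.

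The cells were spread over few genes. The 10 most used heavy genes of each library held 82.8% of the C-ON calls and 68.6% of the FMC_new calls, and the 10 most used light genes 87.6% and 73.8%. The probability that 2 cells drawn from a library share a heavy gene (the unbiased Simpson index, which does not grow with the number of cells) was 10.5% in C-ON and 5.84% in FMC_new. For a light gene it was 12.5% and 6.79%, and for the whole pair 5.16% and 4.08%. B cells (at least 2 Ms4a1 and 2 Cd79a UMIs, fewer than 10 Jchain) were few, 30 and 194, with medians of 42.5 and 71 V UMIs. Under the stricter call, 5 and 35 of them had a heavy gene, with a probability of sharing it of 10.0% and 7.56%, against 13.9% and 6.67% for plasma cells called the same way.

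Heavy and light genes came in fixed combinations. Both were called in 443 C-ON and 2034 FMC_new cells, which held 51 and 237 different pairs. In C-ON 35 pairs were found in at least 2 cells, with 427 cells (96.4%, 94.2 to 97.9), and in FMC_new 119 pairs with 1916 cells (94.2%, 93.1 to 95.2). The 15 C-ON pairs and 39 FMC_new pairs with at least 10 cells held 78.6% and 79.9% of the paired cells. With few genes in use, cells can share a pair without a preferred partner, and the share to expect then was not computed. Of the heavy genes with at least 10 paired cells, 10 of 12 in C-ON and 27 of 34 in FMC_new had the same light gene in at least 50% of their cells. Over all 12 and 34, the leading light gene had a median share of 95.0% and 82.0% and a lowest share of 43.8% and 16.7%. Those light genes were used by a median of 12.4% and 3.86% of all paired cells.

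The leading pairs of FMC_new show this. Ighv1-26 with Igkv3-2 was held by 200 cells, 95.7% of the cells with Ighv1-26 and 89.7% of those with Igkv3-2. Ighv6-3 with Igkv5-43 was held by 166 cells (89.7% of Ighv6-3 cells), Ighv1-64 with Igkv6-17 by 156 (86.7%), Ighv1-19 with Igkv1-117 by 113 (95.0%) and Ighv3-2 with Igkv4-58 by 81 (89.0%). Ighv2-6 and Ighv8-8 both met Igkv1-110, in 87 and 36 cells, so Igkv1-110 was shared between heavy genes. Ighv1-81 was the gene with many partners, 18 light genes in FMC_new and 8 in C-ON. Its leading partner in FMC_new was Igkv4-57 with 95 cells (45.5% of Ighv1-81 cells), a light gene that was with Ighv1-81 in 96.9% of its cells.

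The leading pairs of C-ON were others. Ighv1-81 with Igkv6-20 was held by 49 cells, 43.8% of the Ighv1-81 cells and all of the Igkv6-20 cells, but with a median of only 65 heavy V UMIs of the top gene beside 1301 of the light gene. Ighv1-52 with Igkv10-96 was held by 41 cells, again with few heavy UMIs, a median of 32 beside 2622. Igkv10-96 also met Ighv1-72 in 25 cells and Ighv2-9 in 23. Ighv5-4 with Igkv4-53 had 30 cells and Ighv5-6 with Igkv4-53 had 25, so the like genes of the set shown above shared 1 light gene, and every paired Igkv4-53 cell of C-ON had one or the other. The pairs with Ighv1-72, Ighv2-9, Ighv5-4 and Ighv5-6 were chosen after their values were seen.

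**Figure D3:**
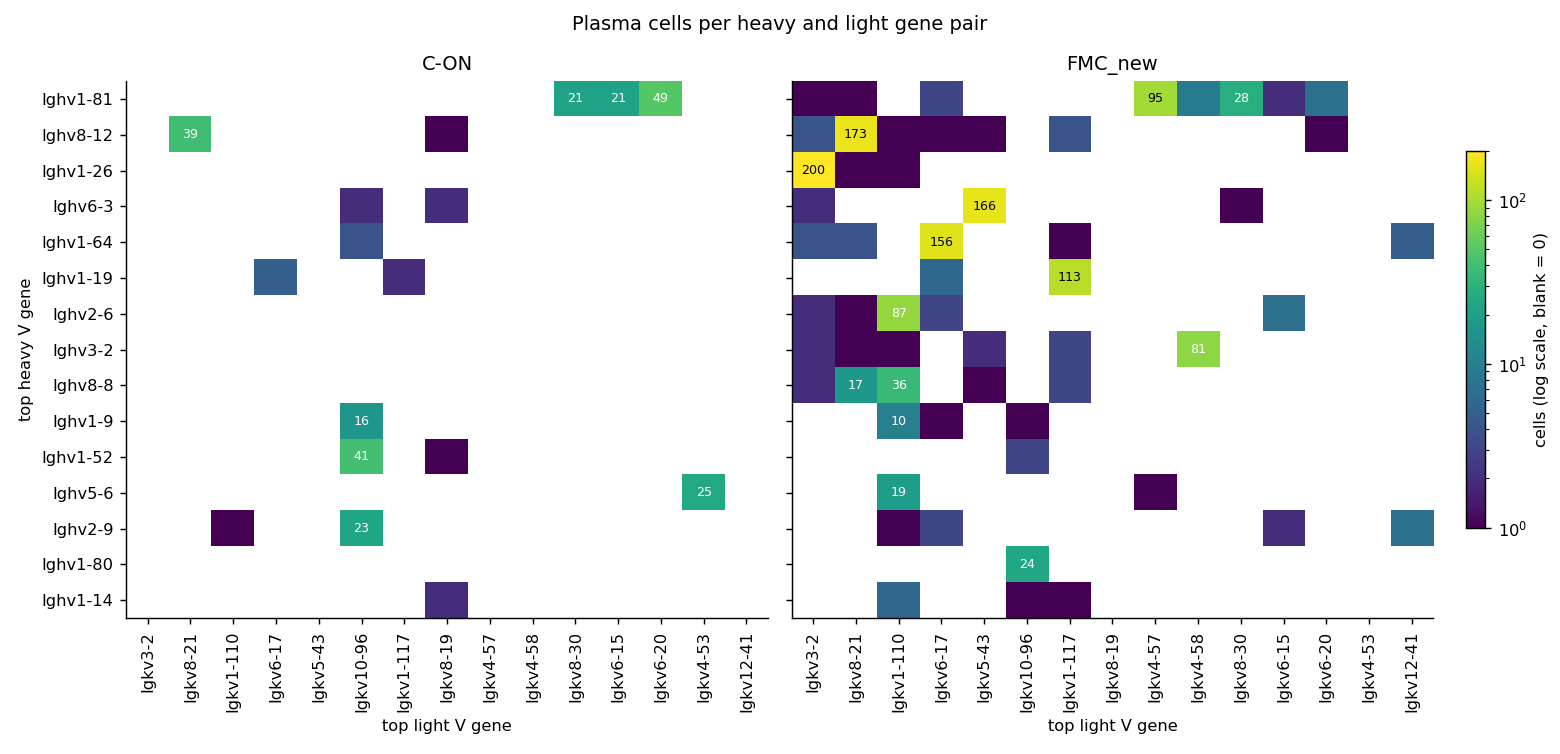
Number of plasma cells (colour, log scale, blank for 0, printed from 10 upward) for each combination of the 15 most used heavy genes (y axis) and 15 most used light genes (x axis) in C-ON (left) and FMC_new (right). In FMC_new most heavy genes have 1 bright square in their row, such as 200 cells for Ighv1-26 with Igkv3-2, and Ighv8-12 with Igkv8-21 is bright in both libraries with 39 and 173 cells.

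Few pairs were found in both libraries. There were 15, which are 29.4% of the C-ON pairs and 6.33% of the FMC_new pairs, with 215 C-ON cells (48.5% of its paired cells) and 362 FMC_new cells (17.8%). Ighv8-12 with Igkv8-21 led them with 39 and 173 cells, 8.80% and 8.51% of the paired cells, and took up 97.5% and 92.5% of the Ighv8-12 cells. Both genes of this pair had high counts, with medians of 2820 and 2474 heavy and 3592 and 4147 light UMIs, and 39 of 39 and 132 of 173 of the cells had at least 50 Jchain UMIs. Ighv1-81 with Igkv8-30 followed with 21 and 28 cells, and Ighv1-81 with Igkv6-20 with 49 and 7. The other 12 shared pairs had at most 5 cells in the library where they were rarer. No C-ON cell kept Ighv1-81 under the stricter heavy call given above. The shared pairs with Ighv1-81, which count in the 48.5%, thus rest on calls below that limit in C-ON.

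Pairs known from other mouse responses were nearly absent. Ighv11-2 with Igkv14-126, a pair of B-1 cells that bind phosphatidylcholine, was found in 1 FMC_new cell, which was called IgM with 11 heavy and 44 light UMIs. Ighv12-3 with Igkv4-91, the other such pair, and Ighv7-1 with Igkv7-33, the T15 antibody against phosphorylcholine, were found in none of the 2477 paired cells. Ighv1-72 with Iglv1, the pair of the response to the hapten NP, was found in 2 FMC_new cells, both IgA. In C-ON, all 25 paired cells with Ighv1-72 had Igkv10-96.

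The heavy constant gene gave the isotype, called like the V genes. C-ON held 254 IgA cells (49.2%) and 262 IgG cells (50.8%) of 516 with a call, and FMC_new 792 (39.9%) and 1189 (59.9%) of 1985, with 4 IgM cells. Ighg2c led the IgG cells of both, with 192 and 604 cells, followed by Ighg2b with 51 and 481 and Ighg1 with 18 and 104. The share of IgA differed with Jchain: 20.1% in FMC_new cells of 10 to 49 Jchain UMIs against 44.3% in those with more, and 31.8% against 50.8% in C-ON. Igha had a UMI in 22.1% of FMC_new oligodendrocytes and 8.53% of those in C-ON, each with a median of 0.

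IgA and IgG cells differed in the V genes they used, and for most genes this could be read in 1 library only. In FMC_new, Ighv1-26 was on top in 120 of 785 IgA cells (15.3%, 12.8 to 18.0) and 84 of 1184 IgG cells (7.09%, 5.70 to 8.71), and Ighv1-64 in 111 (14.1%, 11.8 to 16.8) and 64 (5.41%, 4.19 to 6.85). The reverse held there for Ighv6-3, with 31 IgA cells (3.95%, 2.70 to 5.56) and 150 IgG cells (12.7%, 10.8 to 14.7), and for Ighv1-19, with 22 (2.80%, 1.76 to 4.21) and 95 (8.02%, 6.54 to 9.72). Ighv2-6 had 52 IgA cells (6.62%, 4.99 to 8.60) and 49 IgG cells (4.14%, 3.08 to 5.43), which overlap. Each of these genes had at most 7 cells in C-ON.

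The heavy genes that both libraries used did not keep their leaning. Ighv1-81 was on top in 20 of 195 IgA cells of C-ON (10.3%, 6.38 to 15.4) and 87 of 242 IgG cells (36.0%, 29.9 to 42.3), while in FMC_new the shares were 9.43% (7.47 to 11.7) and 11.4% (9.65 to 13.4), which overlap. The C-ON calls of Ighv1-81 all fell below the stricter limit. Ighv8-12 was on top in 37 IgA cells of C-ON (19.0%, 13.7 to 25.2) and 3 IgG cells (1.24%, 0.256 to 3.58), against 64 (8.15%, 6.34 to 10.3) and 114 (9.63%, 8.01 to 11.5) in FMC_new. Cells of 1 pair move together in these shares, and 1 pair made up 95.7% of the paired Ighv1-26 cells and 97.5% of the paired Ighv8-12 cells of C-ON.

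Light genes followed their heavy partners. Igkv3-2, with Ighv1-26, was on top in 121 of 791 IgA cells of FMC_new (15.3%, 12.9 to 18.0) and 83 of 1189 IgG cells (6.98%, 5.60 to 8.58), and Igkv6-17, with Ighv1-64, in 112 (14.2%, 11.8 to 16.8) and 79 (6.64%, 5.30 to 8.21). Igkv5-43, with Ighv6-3, had 40 IgA cells (5.06%, 3.64 to 6.82) and 147 IgG cells (12.4%, 10.5 to 14.4), and Igkv1-117, with Ighv1-19, 36 (4.55%, 3.21 to 6.25) and 126 (10.6%, 8.90 to 12.5). In C-ON, Igkv10-96 had 36 of 254 IgA cells (14.2%, 10.1 to 19.1) and 91 of 262 IgG cells (34.7%, 29.0 to 40.8), and in FMC_new 2.28% and 3.95%, with overlapping intervals. Of the 4 IgM cells, 2 had a heavy call, Ighv1-84 and Ighv11-2. Their light genes were Igkv1-110 in 2, Igkv12-41 in 1 and Igkv14-126 in 1.

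Single pairs were found with several isotypes. In FMC_new, 39 pairs had an isotype call in at least 10 cells, and 33 of them held IgA and IgG cells, 20 with at least 5 of each. In C-ON this was 8 of 15 pairs, 3 with at least 5 of each. Ighv1-26 with Igkv3-2 had 113 Igha cells, 49 Ighg2b, 24 Ighg1 and 9 Ighg2c. Ighv1-64 with Igkv6-17 was alike, with 98 Igha, 30 Ighg2b, 23 Ighg1 and 2 Ighg2c cells. Ighv6-3 with Igkv5-43 leaned to IgG, with 114 Ighg2c, 23 Ighg2b, 1 Ighg1 and 26 Igha cells, and Ighv3-2 with Igkv4-58 had 65 Ighg2c and 12 Igha cells and no other isotype. In C-ON, Ighv1-72 with Igkv10-96 had 18 Ighg1 and 7 Ighg2c cells and no Igha cell, and held all 18 Ighg1 cells of that library. When the isotype had to have at least 10 UMIs and 80% of a cell's heavy constant UMIs, a setting chosen after seeing the data, 18 FMC_new pairs and 3 C-ON pairs still had at least 5 cells of each class.

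Pairs shared by the libraries differed in isotype between them. Ighv8-12 with Igkv8-21 in C-ON had 37 Igha and 2 Ighg2c cells, 94.9% IgA. The same pair in FMC_new had 60 Igha, 69 Ighg2b and 42 Ighg2c cells, 35.1% IgA. Ighv1-81 with Igkv8-30, which no C-ON cell kept under the stricter heavy call, went the opposite way. It had 4 Igha and 15 Ighg2b cells in C-ON and 16 and 8 in FMC_new, so that IgA was 19.0% and 57.1%. Whether these cells belong to the same expanded lineages was not tested, as the junctions were not sequenced.

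**Figure D4:**
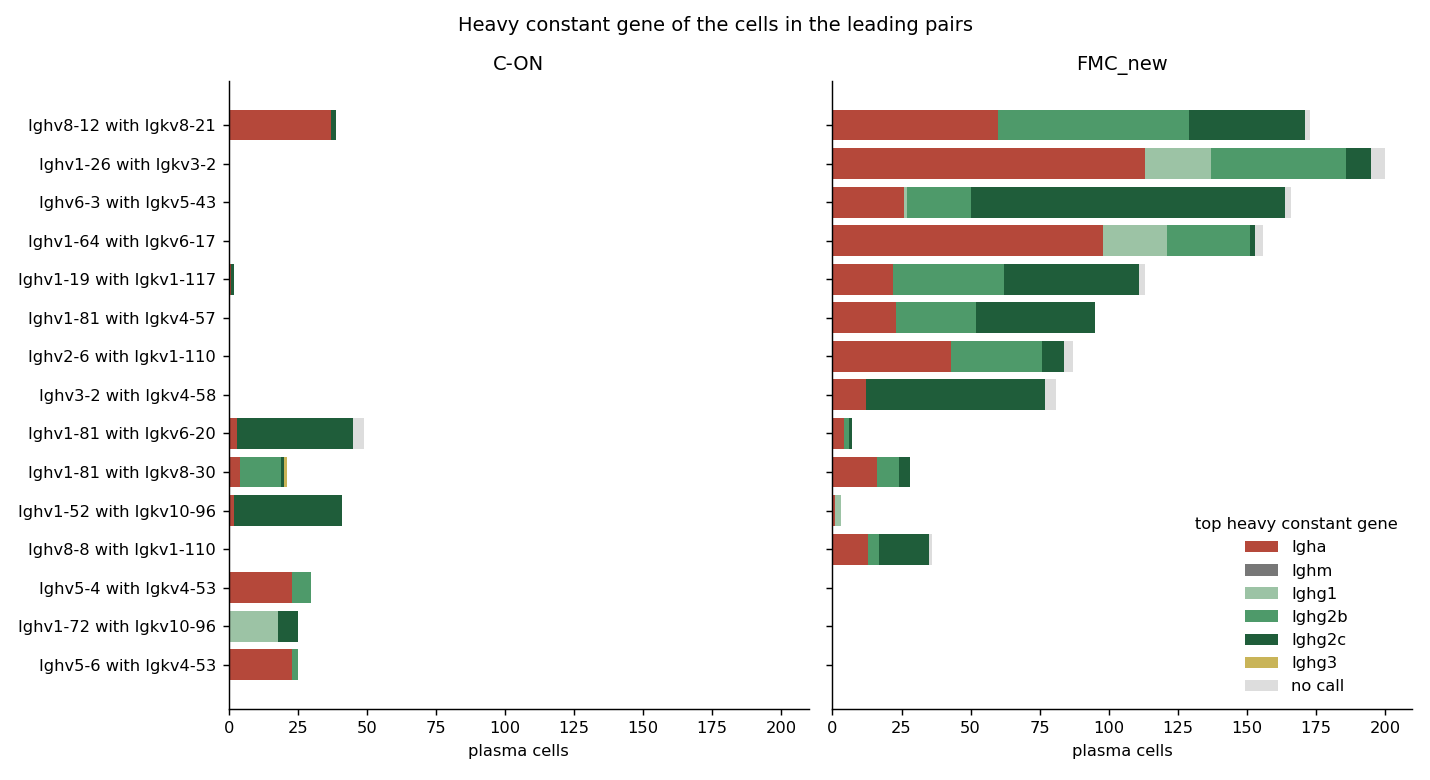
Number of plasma cells (x axis) per pair (y axis) in C-ON (left) and FMC_new (right), coloured by the top heavy constant gene: the 12 most frequent pairs over both libraries, then 3 further pairs of C-ON, with cells without a call in light grey. Most long bars hold red (Igha) and green (Ighg1, Ighg2b and Ighg2c) parts together, such as 113 Igha and 49 Ighg2b cells in Ighv1-26 with Igkv3-2, and Ighv8-12 with Igkv8-21 is almost all Igha in C-ON (37 of 39) but not in FMC_new (60 of 173).

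The heavy J segment, which the choice of genes and pairs did not use, was called in 254 C-ON and 679 FMC_new cells with at least 3 UMIs of Ighj1 to Ighj4. Such UMIs were rare outside plasma cells: each of the 4 J genes had one in at most 0.201% of oligodendrocytes in either library. Ighj3 led in C-ON with 112 cells (44.1%) and Ighj2 in FMC_new with 294 (43.3%), while Ighj1 had 2 and 107. Within pairs with a J call in at least 5 cells, 96.0% of 177 C-ON cells and 78.5% of 512 FMC_new cells carried the leading J of their pair. At least 90% of the cells had 1 J in 14 of 17 such C-ON pairs and in 12 of 25 FMC_new pairs.

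Pairs differed in how uniform their J was. Ighv6-3 with Igkv5-43 had Ighj2 in 55 of 56 FMC_new cells, Ighv3-2 with Igkv4-58 in 24 of 24, and Ighv8-8 with Igkv1-110 had Ighj1 in 20 of 20. Ighv2-6 with Igkv1-110 had Ighj4 in 35 of 37 and Ighv1-81 with Igkv4-57 had Ighj3 in 25 of 27. By contrast, Ighv1-26 with Igkv3-2 held Ighj2 in 51 cells and Ighj1 in 35, and Ighv1-64 with Igkv6-17 held Ighj2 in 33 and Ighj3 in 17. In C-ON, Ighv1-52 with Igkv10-96 had Ighj3 in 15 of 15 cells and Ighv1-81 with Igkv6-20 Ighj2 in 19 of 20. The pair shared by the libraries had different leading J segments in them. Ighv8-12 with Igkv8-21 had Ighj4 in 12, Ighj3 in 3 and Ighj2 in 1 of 16 C-ON cells, and Ighj2 in 38, Ighj3 in 11 and Ighj4 in 5 of 54 FMC_new cells. Ighv5-4 and Ighv5-6 with Igkv4-53, whose heavy genes were each second to the other, both had Ighj2, in 7 of 7 and 12 of 12 cells.

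A second light gene (same limits) was rarer than a second heavy gene and was mostly of another family. It held at least 10% of the light V UMIs in 53 of 525 C-ON cells (10.1%), in 8 of them of the same family, and in 309 of 2089 FMC_new cells (14.8%), in 16 of the same family. The limit of 10 UMIs is on the top gene, so a second gene can have few UMIs. In FMC_new oligodendrocytes Igkv3-2 and Igkv1-110 each had a median of 3 UMIs. How many second genes rest on that level was not tested. Some sets recurred with 1 heavy gene, and these were chosen after their values were seen. In C-ON, 19 cells held Igkv17-121 and Igkv6-23 together, with medians of 4375 and 3944 UMIs, and all 19 had Ighv1-14, a gene annotated as a pseudogene. The light genes are 64.6% identical. In FMC_new, 13 cells held Igkv3-1 and Igkv11-125, with medians of 9688 and 2896 UMIs, all with Ighv1-4. Igkv11-125 is the gene named above as the highest that was never on top. A further 18 FMC_new cells held Igkv16-104 and Igkv4-57-1, all with Ighv1-9, and 17 held Igkv14-126 and Igkv5-43, 16 of them with Ighv6-3. The cells of the C-ON set and of Igkv3-1 with Igkv11-125 had medians of 19547 and 19819 UMIs, above those of all plasma cells, while those of the other 2 sets had 2225.5 and 6369. Whether they are single cells or doublets was not tested.

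Some plasma cells had a light gene and no heavy gene. In C-ON 81 cells without a heavy call had at least 100 UMIs of a light gene, and 78 of them had Igkv8-19, out of 95 cells with that light gene. In FMC_new there were 8 such cells. Igkv8-19 cells of C-ON were mostly IgA, with 68 IgA and 26 IgG cells, so the heavy constant gene was seen where no heavy V gene was.

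Lambda light chains were rare. None of 525 C-ON cells had a lambda gene on top (interval up to 0.700%), and 18 of 2116 FMC_new cells did (0.851%, 0.505 to 1.34), all with Iglv1. The light constant genes, which the call does not use, went with it. The 18 lambda cells had a median of 1 Igkc UMI and 62.5 Iglc1 UMIs, and all 18 had more Iglc than Igkc UMIs. In the 2098 kappa cells of FMC_new the medians were 91 for Igkc and 9 for Iglc1, Iglc2 and Iglc3 together, and 74 cells had more Iglc. In the 525 kappa cells of C-ON they were 209 and 26, with 7 such cells.

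By V family, Ighv1, the largest with 62 members, was used by 69.1% of C-ON cells (64.5 to 73.4) and 57.6% of FMC_new cells (55.4 to 59.8). Ighv5 was used by 12.9% and 1.86%, Ighv6 by 0.903% and 10.4%, Ighv8 by 9.26% and 13.2%, and Ighv3 by 0% and 6.08%. Among kappa families, Igkv8 was used by 29.9% and 13.1%, Igkv10 by 24.6% and 3.88%, Igkv1 by 4.57% and 19.4%, and Igkv5 by 0% and 10.6%. Some of these shares came from 1 gene: Igkv10-96 gave all 129 Igkv10 cells of C-ON and Ighv6-3 185 of the 211 Ighv6 cells of FMC_new.

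Used genes were found along the whole of both loci. Each locus was split by gene order, counted from its first J segment, into 3 parts of nearly equal numbers of V genes. In the heavy locus the part farthest from Ighj1 (1516 to 2580 kb) held 58.0% of C-ON cells (53.3 to 62.7) and 43.3% of FMC_new cells (41.1 to 45.5), with 39 members. The nearest part held 20.8% and 17.3%, with 36 members, and the middle part 21.2% and 39.4%, with 38. In the kappa locus the nearest part (19 to 1073 kb from Igkj1) held 62.7% (58.4 to 66.8) and 54.6% (52.5 to 56.8), with 37 members. The middle part had the fewest cells, 3.05% and 13.2%, with 26 members, and the farthest 34.3% and 31.3%, with 24. Igkv3-2 lies 23.8 kb from Igkj1, the second nearest kappa gene, and Ighv1-81 lies 2491 kb from Ighj1.

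**Figure D5:**
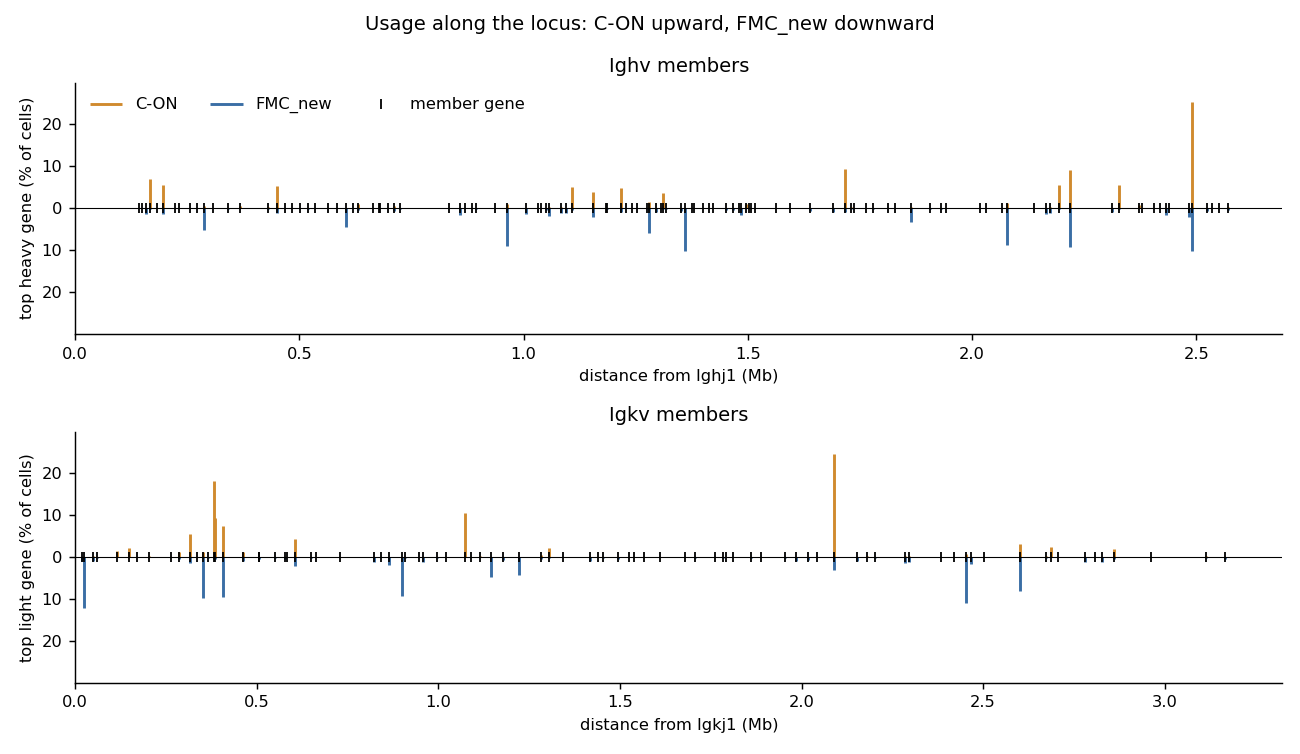
Percentage of plasma cells with a call whose top gene lies at a given distance (x axis, Mb) from Ighj1 (upper panel) or Igkj1 (lower panel), drawn upward for C-ON (orange) and downward for FMC_new (blue), with a tick for each member gene. Long lines stand at both ends of each locus, such as Ighv1-81 at 25.3% and 10.3% near the far end of the heavy locus.

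Genes of the machinery that joins V genes were at or near 0. Rag1 and Rag2, the recombinase, and Igll1, a surrogate light chain, had no UMI in any plasma cell of either library. Dntt, which adds bases at junctions, had one in 2 FMC_new cells and Vpreb1 in 3 C-ON and 9 FMC_new cells. Ung, a uracil glycosylase of DNA repair, had one in 3.24% of C-ON cells and 2.39% of FMC_new cells. The cycling genes Mki67 and Top2a were seen in 9.14% and 4.19% of the C-ON plasma cells, against 2.16% and 1.98% of the other barcodes there. In FMC_new they were seen in 12.1% and 8.12%, against 4.46% and 5.12%. These shares are not corrected for depth. The median was 12232 and 12203 UMIs in plasma cells, against 6422 and 4001 over all barcodes. In counts scaled to total UMIs (CPM), Mki67 was at 17.6 in C-ON plasma cells and 12.0 in the other barcodes. In FMC_new it was at 42.4 and 36.0. Top2a was at 14.9 and 11.6 in C-ON, and the order was reversed in FMC_new, with 28.1 and 36.2.

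IgA and IgG cells, which shared many pairs, differed in other genes in both libraries. Ccr10, a chemokine receptor of mucosal plasma cells, had a UMI in 51.2% of IgA and 13.7% of IgG cells in C-ON, and in 56.9% and 24.7% in FMC_new. Tnfrsf17, the BCMA receptor for plasma cell survival signals, had one in 38.2% and 6.87%, and in 44.9% and 11.6%. Txndc5, a protein disulfide isomerase, had one in 91.7% and 64.9%, and in 90.2% and 69.0%. Sdc1 was close in C-ON, 65.0% and 65.6%, and had one in 63.9% and 52.6% in FMC_new. Of the other plasma cell genes looked at, Xbp1, Prdm1 and Pou2af1 had higher shares in IgA cells in both libraries. Derl3, Irf4 and Tent5c were close in C-ON and higher in IgA cells in FMC_new. Cxcr4, the receptor that holds plasma cells in bone marrow, went the other way, with 23.6% and 34.7%, and 22.3% and 29.4%. So did the plasma cell gene Fkbp11, with 48.8% and 59.5%, and 47.2% and 54.6%. The other genes of the homing list were closer: Ccr9, the gut homing receptor, had a UMI in 2.36% and 0.382% of C-ON cells and in 2.27% and 2.27% of FMC_new cells, and the integrin Itga4 in 66.9% and 66.8%, and in 70.2% and 66.7%. Itgb7, its partner in gut homing, had one in 26.4% and 27.9%, and in 24.9% and 21.6%, and Itgb1 in 25.6% and 28.2%, and in 35.1% and 32.5%. The median depth was 11989.5 UMIs in IgA and 12768 in IgG cells of C-ON, and 14431.5 and 12027 in FMC_new.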

How the data were processed

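Files deposited by the authors hold raw UMI counts per gene and barcode, without normalization, from Cell Ranger (7.2.0 per the submitters' processing notes, while the methods name another version) on mm10. No sequencing of antibody junctions was used here. From the counts, the top heavy, light and heavy constant gene of each plasma cell was taken as described, with Python 3.11.15, numpy 2.4.6, scipy 1.17.1 and pandas 2.3.3, for all deposited barcodes. The V genes (all 348 rows) were matched by identifier to GENCODE M21 on GRCm38 for position and sequence, and identity was from local alignments of the annotated transcripts (Biopython 1.88). The calls were also run on simulated cells with less free V RNA than FMC_new oligodendrocytes held and no reads split between like genes. That run cannot show how the calls fare against either. No group comparison and no test across samples was made, as there is 1 condition.

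Named were the 10 heavy and 10 light genes of most cells, the 5 of each isotype, the 12 most frequent pairs, 3 genes on each side of the limit of 20 UMIs and 4 pairs known from the literature. The members, lists and pairs were chosen with earlier results of these data known. Alternatives were other limits on barcodes, calls, plasma cells and genes, and each library alone.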

Additional observations from a re-analysis of the deposited data

How the results depend on the processing

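Of 66 values under another setting with both libraries kept, 64 moved by less than the SD of the libraries (counts: by less than 1.5 times). This SD is wide where the libraries differ, such as 26.1 points for the top heavy gene's median share and 8.62 for Igkv3-2. The move of Igkv3-2 from 9.77% to 6.99% under the stricter call is thus among the 64. Some values could not move, since the number of plasma cells and the IgA share do not use the V call. The count is therefore no measure of robustness. Calls of at least 10 UMIs and 80% of the chain's V UMIs lowered the share of plasma cells with a heavy call from 93.4% to 59.6%, to 153 C-ON and 1429 FMC_new cells, and the pairs with at least 5 IgA and 5 IgG cells from 23 to 13, with 0 of them in C-ON and 13 in FMC_new. With FMC_new or C-ON alone, the number of plasma cells ran from 525 to 2130, the share with a heavy call from 84.4% to 95.7%, the top heavy gene's median share from 61.9% to 98.7%, the top light gene's from 97.9% to 99.0%, IgA from 39.9% to 49.2%, lambda from 0% to 0.851%, Ighv1-81 from 10.3% to 25.3%, Igkv3-2 from 0% to 12.2%, the probability of sharing a heavy gene from 5.84% to 10.5%, cells in pairs found in 2 or more cells from 94.2% to 96.4%, and cells with the leading J of their pair from 78.5% to 96.0%. Plasma cells with at least 50 Jchain and 5 Mzb1 UMIs numbered 1953, with 44.9% IgA. The settings for isotype, shared isotypes and J were chosen after seeing the data. No paired analysis was possible because both libraries belong to 1 group. FMC_new calls from few V UMIs are the least certain, since oligodendrocytes there had a median of 28 V UMIs.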
